A study of Mus musculus with 48 samples.

Results

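The enzymes that release fatty acids from stored triglyceride, together with the proteins that switch them on, were followed through the differentiation of 3T3-L1 cells with and without PPARγ. All probes that the array names LIPE, PNPLA2, MGLL, ABHD5 or CES3 were read, whatever their values. These were 6 of the 24613 probes and 5 of the 18991 gene symbols of the array, with 2 probes for MGLL and 1 for each other gene. PDE3B, the phosphodiesterase through which insulin lowers cyclic AMP in adipocytes, belongs to the same set and was not analysed here. The array gives no accession for its CES3 probe, and RefSeq lists Ces3 as an older name of both Ces1d and Ces3a, so that gene is called CES3 here. 5 of the 6 probes were above background, which is a detection p under 0.01, on at least 3 of the 48 arrays.

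3T3-L1 is a clonal mouse fibroblast line that can be turned into adipocytes in culture, so every sample came from 1 clone. Before differentiation the cells received 50 nM of an siRNA pool, either against PPARγ (PPARγ KD) or non-targeting (control siRNA). All cells of both arms were then treated alike. Confluent cells were given 0.5 mM IBMX and 0.25 µM dexamethasone from day −2 for 48 h, then 5 µg/ml insulin and 1 µM rosiglitazone from day 0 for 48 h, with fresh medium every 2 days afterwards. RNA was taken at day −2 and on days 0 to 6 in 3 independent biological replicates of each siRNA, and each of the 48 samples was hybridised to 1 Illumina MouseRef-8 array.

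Stored triglyceride is broken down stepwise: PNPLA2 (adipose triglyceride lipase) removes the first fatty acid, LIPE (hormone-sensitive lipase) the next from the diglyceride, and MGLL (monoglyceride lipase) the last, leaving glycerol. ABHD5 is a coactivator without lipase activity of its own that binds PNPLA2, and in resting adipocytes it is held by perilipin on the lipid droplet until protein kinase A acts. CES3 belongs to the carboxylesterases, enzymes of the endoplasmic reticulum that hydrolyse esters, triglyceride among them. PPARγ is the nuclear receptor needed for adipocyte formation, it binds DNA together with RXR, and rosiglitazone is its agonist.

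The stretches of 250 bases upstream of annotated starts of Pnpla2, Lipe, Mgll and Abhd5 are shown because the levels of these genes moved with the siRNA, and because the motif letters they hold can be compared with all promoters. They come from RefSeq on the mouse build GRCm38.p6 and are written 5′ to 3′ on the strand of the gene. The letters searched on both strands were AGGTCA (the core element of nuclear receptors), 2 copies of AGGTCA in a row with 1 base of any kind between them (the direct repeat bound by PPARγ and RXR), GGGCGG (a GC box) and CACGTG (an E-box), and capitals mark every match to them. Pnpla2 lies on the plus strand with the window at chr7:141454938-141455187, Abhd5 on the plus strand at chr9:122351366-122351615 and Mgll on the plus strand at chr6:88724162-88724411. The windows of the 2 Lipe starts lie on the minus strand, start 1 at chr7:25395988-25396237 and start 2 at chr7:25390113-25390362.
Pnpla2: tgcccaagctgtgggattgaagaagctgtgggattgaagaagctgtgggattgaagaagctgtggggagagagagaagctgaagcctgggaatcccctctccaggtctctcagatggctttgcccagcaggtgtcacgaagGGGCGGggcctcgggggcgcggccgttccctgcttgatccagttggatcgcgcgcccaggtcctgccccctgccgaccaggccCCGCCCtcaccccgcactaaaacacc
Abhd5: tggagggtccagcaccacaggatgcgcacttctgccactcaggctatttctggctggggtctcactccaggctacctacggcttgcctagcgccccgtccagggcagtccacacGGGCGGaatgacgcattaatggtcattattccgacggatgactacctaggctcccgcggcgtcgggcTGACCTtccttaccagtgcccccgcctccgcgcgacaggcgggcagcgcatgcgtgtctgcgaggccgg
Lipe start 1: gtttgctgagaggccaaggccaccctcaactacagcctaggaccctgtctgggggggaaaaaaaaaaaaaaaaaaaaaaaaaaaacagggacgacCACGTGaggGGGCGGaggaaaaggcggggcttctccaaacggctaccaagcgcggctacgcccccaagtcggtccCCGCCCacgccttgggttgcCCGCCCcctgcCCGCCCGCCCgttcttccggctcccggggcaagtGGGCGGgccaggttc
Lipe start 2: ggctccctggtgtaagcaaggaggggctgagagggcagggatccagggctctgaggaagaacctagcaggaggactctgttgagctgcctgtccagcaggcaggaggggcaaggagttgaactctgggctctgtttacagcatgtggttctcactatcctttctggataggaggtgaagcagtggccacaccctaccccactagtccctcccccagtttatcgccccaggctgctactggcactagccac
Mgll: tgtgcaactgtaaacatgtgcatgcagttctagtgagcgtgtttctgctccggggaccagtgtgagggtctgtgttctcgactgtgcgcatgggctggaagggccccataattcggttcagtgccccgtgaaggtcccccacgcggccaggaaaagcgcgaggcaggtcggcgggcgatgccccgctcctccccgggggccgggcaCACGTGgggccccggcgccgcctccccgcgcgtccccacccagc
The Pnpla2 window held 2 GC boxes. The Abhd5 window held 1 GC box and 1 AGGTCA, read on the minus strand as TGACCT between 69 and 64 bases before the start. The window of Lipe start 1 held 6 GC boxes, of which 2 overlap, and 1 CACGTG, the window of Lipe start 2 held none of the letters, and the printed window of Mgll held 1 CACGTG. A further Mgll start, with its window on the plus strand at chr6:88724454-88724703, is not printed and held 1 GC box. The direct repeat was in none of these windows. Among all 32851 promoter windows of this length, 14.0% held AGGTCA, 0.0335% the direct repeat, 32.7% GGGCGG and 6.02% CACGTG. A match to these letters is a description of the sequence and not a binding site.

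The labels of the siRNA were borne out by the PPARG probes. On the brightest of them PPARG was lower under PPARγ KD in 24 of 24 same-day comparisons between arrays with a shared replicate number, with mean log2 signals of 11.42 and 9.08 (log2 difference −2.34, adjusted p = 9.48e-34 by limma). Of a list of dexamethasone-responsive genes, 8 symbols were found, and only FKBP5 is given here. Its mean log2 signal was 8.81 at day −2 and 12.31 at day 0 in control cells, and 8.44 and 11.87 under PPARγ KD. By the protocol, the arrays labelled day 0 follow 48 h of the first cocktail. The length of that exposure was not read from these values. Between 36.8% and 40.4% of probes were above background on the arrays of replicates 1 and 2, and between 33.5% and 35.4% on those of replicate 3. Of 11 probes of adipocyte markers, 9 were lower under PPARγ KD (6.74% of all probes). CEBPA, FABP4, PCK1, RETN, SLC2A4 and 1 LPL probe were above background on 0 PPARγ KD arrays. On control arrays they were above it on 19, 12, 2, 15, 16 and 1 of 24. ADIPOQ, CIDEC, CFD, AGPAT2 and the other LPL probe were above background on 15, 15, 12, 24 and 24 PPARγ KD arrays. The log2 of the summed signal of the 11 probes ran from 13.42 to 17.12 in control cells and from 12.14 to 15.04 under PPARγ KD. Of 13 probes of fibroblast markers, 8 were higher (6.37% of all probes), with summed levels on the same scale that also overlapped (16.16 to 17.13 in control cells, 16.76 to 17.30 under PPARγ KD). In whole-culture RNA, fewer cells that became adipocytes and less RNA per cell cannot be told apart, and the part of either in the differences that follow was not tested. Most probes for macrophage, endothelial, muscle and hepatocyte markers (10 of 12, 4 of 5, 4 of 5 and 8 of 8) were above background on no array. Of the detected ones, named after their values were seen, the macrophage marker LYZS was higher under PPARγ KD (0.32, adjusted p = 0.0134, above background on 15 control and 21 PPARγ KD arrays), and CD14 was above background on 16 and 24 arrays (0.24, adjusted p = 1). EMCN of the endothelial markers was above background on 1 and 3 arrays and ACTA1 of the muscle markers on 19 and 15, each with an adjusted p of 1. The part of these in the differences that follow was not tested.

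All 5 genes were lower under PPARγ KD than under control siRNA. Over the 8 days, 5 of the 6 probes were called lower and 0 higher, against 6.74% of all 24613 probes called lower and 6.37% higher, and the median log2 difference was −1.49 over the 6 probes and −0.03 over all probes. Calls rest on limma with the replicate number as a block and a Bonferroni adjusted p of at most 0.05 over all probes. The model has no term for an siRNA effect that differs between replicates. An SE or adjusted p over several days therefore treats the days of 1 replicate as independent. It does not measure the spread between the 3 replicates. PNPLA2 and ABHD5, above background on all 48 arrays, were at 18.4% (log2 difference −2.44, SE 0.06, adjusted p = 3.23e-29) and 58.3% (−0.78, SE 0.04, adjusted p = 1.29e-15) of their control levels. The fitted differences of CES3 (−3.54, SE 0.06, adjusted p = 2.41e-34), LIPE (−2.21, SE 0.05, adjusted p = 2e-28) and MGLL (−0.50, SE 0.06, adjusted p = 4.68e-05) are no exact sizes, because only 12, 13 and 13 of the 24 PPARγ KD arrays and 21, 23 and 15 of the control arrays had a signal above background for them. Without background correction they were −2.69 for CES3 and −1.52 for LIPE. From the most negative difference down, PNPLA2 stood at place 27 of 24613 probes and ABHD5 at place 275. The differences over all days had the same sign in 3 of 3 replicates for each of these 5 probes. With 1 replicate left out, they ranged from −2.60 to −2.36 for PNPLA2 and from −0.90 to −0.71 for ABHD5. The MGLL call was lost without replicate 1 (adjusted p = 0.0612) and without replicate 2 (adjusted p = 0.0894), with log2 differences of −0.52 and −0.48.

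**Figure D1:**
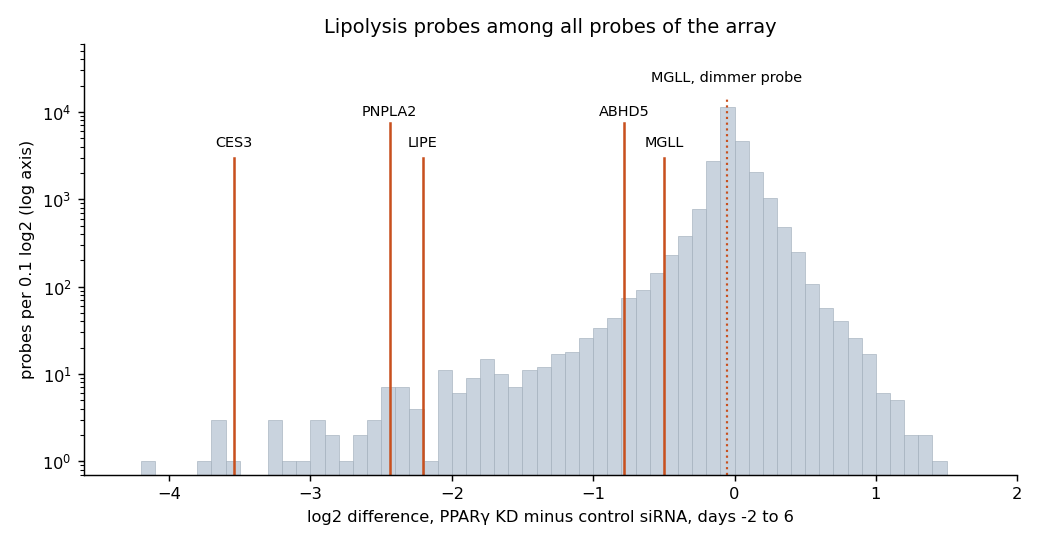
Distribution of the log2 difference between PPARγ KD and control siRNA over days −2 to 6 for all 24613 probes, as the number of probes per 0.1 log2 on a log axis, with the 6 lipolysis probes as vertical lines. PNPLA2 (−2.44) lies in the thin left tail and ABHD5 (−0.78) at its edge. The lines of CES3, LIPE and MGLL rest in part on arrays that were not above background, and those of the dimmer MGLL probe (dotted) on such arrays alone, so their places are no exact measure.

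**Figure D2:**
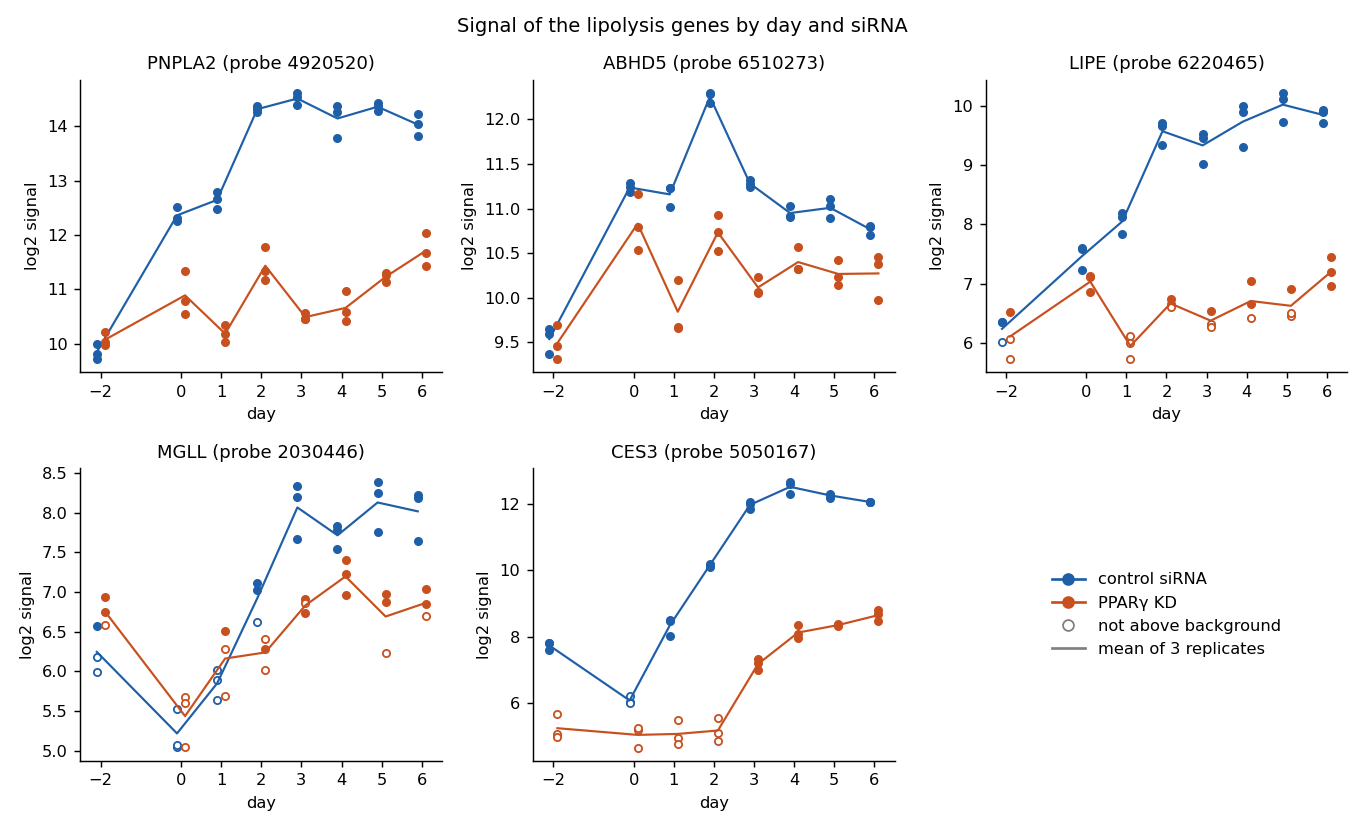
Log2 signal of each lipolysis gene (vertical axis, own scale in each panel) by day (horizontal axis), with 1 point per array, open where the probe was not above background, and lines through the means of 3 replicates. Control siRNA (blue) and PPARγ KD (orange) overlap at day −2 for PNPLA2, ABHD5 and LIPE and are apart from day 1 on, whereas CES3 is apart on every day. At day 0 CES3 is above background on no array of either arm.

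PNPLA2, the enzyme of the first step, overlapped between the arms before differentiation and was apart from day 0 on. In control cells the log2 signals of replicates 1 to 3 were 10.01, 9.82 and 9.73 at day −2, 12.51, 12.31 and 12.26 at day 0, and 12.80, 12.66 and 12.47 at day 1. They were 14.37, 14.26 and 14.31 at day 2 and 14.53, 14.61 and 14.38 at day 3. The signals stayed between 13.79 and 14.42 on days 4 to 6. PNPLA2 in control cells thus climbed in 2 steps, before day 0 and between days 1 and 2, and then held a plateau. Under PPARγ KD the signals were 10.04, 9.97 and 10.22 at day −2, 10.80, 10.55 and 11.33 at day 0, and 10.19, 10.03 and 10.34 at day 1. They were 11.35, 11.17 and 11.78 at day 2, 10.57, 10.46 and 10.45 at day 3, and between 10.43 and 12.03 on days 4 to 6. The arms overlapped at day −2 and on none of the 7 later days, and the lowest control array of days 2 to 6 lay above the highest PPARγ KD array of any day.

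The PNPLA2 difference at day −2 was 0.22 on the log2 scale (SE 0.16, adjusted p = 1). It was −1.47 at day 0 (adjusted p = 6.55e-07), where PPARγ KD cells had 36.1% of the control level, and this change of the effect from day −2 to day 0 was called (−1.69, SE 0.22, adjusted p = 0.000102). The change was no longer called without replicate 1 (adjusted p = 0.423) or replicate 2 (adjusted p = 0.521). The widest gap came at day 3, with 6.19% of the control level (−4.01, SE 0.16, adjusted p = 9e-21), and at day 6 it was 20.1% (−2.32, adjusted p = 1e-12). PNPLA2 rose under PPARγ KD too: day 6 exceeded day −2 by 1.64 (SE 0.16, adjusted p = 3.52e-08), against 4.18 (SE 0.16, adjusted p = 2.18e-21) in control cells. The difference at day 0 itself was likewise lost as a call without replicate 1 (adjusted p = 0.069) or replicate 2 (adjusted p = 0.051). Ordered by mean level, control day 3 stood above day 5 beyond the spread of the replicates (more than 2 SD of the within-replicate differences), while days 5, 2, 4 and 6 did not differ from one to the next in that order, and day 6, day 1 and day 0 each stood above the next.

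ABHD5, the coactivator of PNPLA2, rose early and peaked on a single day. In control cells its log2 signals were 9.59, 9.36 and 9.65 at day −2, 11.24, 11.28 and 11.18 at day 0, and 11.23, 11.23 and 11.02 at day 1. They were 12.30, 12.28 and 12.19 at day 2, the highest of the course, and 11.28, 11.32 and 11.24 at day 3. From day 4 to day 6 they lay between 10.70 and 11.10. Control ABHD5 was therefore highest at the end of the rosiglitazone and insulin treatment, and its later levels stayed above the start. Under PPARγ KD the signals were 9.46, 9.32 and 9.70 at day −2, 10.54, 10.80 and 11.16 at day 0, and 9.66, 9.68 and 10.19 at day 1. They were 10.74, 10.52 and 10.93 at day 2, 10.05, 10.06 and 10.23 at day 3, and between 9.98 and 10.56 on days 4 to 6. As with PNPLA2, the arms overlapped at day −2 and on none of the 7 later days.

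The ABHD5 difference had its most negative values on days 1 and 2, and its change from day 2 to day 3 was not called. It was −0.05 at day −2 (SE 0.12) and −0.41 at day 0 (SE 0.12), both with an adjusted p of 1, then −1.32 at day 1 (adjusted p = 1.27e-08) and −1.52 at day 2 (SE 0.12, adjusted p = 1.83e-10), where PPARγ KD cells had 34.8% of the control level. It was −1.16 at day 3 (adjusted p = 3.71e-07), −0.55 at day 4, −0.74 at day 5 (adjusted p = 0.0117) and −0.49 at day 6, with an adjusted p of 1 on days 4 and 6. The call at day 5 was lost without replicate 1 and without replicate 2 (adjusted p = 1 for both) and under quantile normalization (adjusted p = 0.0835). By day 0 ABHD5 had risen over day −2 in both arms, by 1.34 under PPARγ KD (SE 0.12, adjusted p = 7.84e-09) and by 1.70 in control cells (SE 0.12, adjusted p = 6.07e-12), and the 2 gains differed by −0.36 with a 95% interval from −0.71 to −0.01 (adjusted p = 1). In control cells it then gained 1.09 from day 1 to day 2 (adjusted p = 1.88e-06) and fell by 0.97 from day 2 to day 3 (adjusted p = 3.43e-05). Under PPARγ KD it fell by 0.99 from day 0 to day 1 (adjusted p = 2.44e-05) and gained 0.89 from day 1 to day 2 (adjusted p = 0.000274). In the order of control levels, which ran over days 2, 3, 0, 1, 5, 4, 6 and −2, each day stood above the next beyond the replicate spread except day 0 above day 1 and day 5 above day 4.

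LIPE, the diglyceride lipase, was near background at the start and was above it on all control arrays from day 0 on. Its control log2 signals were 6.35, 6.34 and 6.01 at day −2, the last not above background, 7.58, 7.60 and 7.23 at day 0, and 8.13, 8.19 and 7.84 at day 1. They were 9.73, 9.67 and 9.34 at day 2, 9.53, 9.46 and 9.02 at day 3, and between 9.31 and 10.22 on days 4 to 6. Under PPARγ KD they were 7.11, 7.13 and 6.86 at day 0, all above background, and 6.11, 5.73 and 5.99 at day 1, none above background. At day −2 and on days 2 to 6 the PPARγ KD signals lay between 5.73 and 7.44, above background on 1 of 3 arrays at day −2 and on 2, 1, 2, 1 and 3 of 3 arrays on days 2 to 6. The arms overlapped at day −2 only, and no PPARγ KD array of any day reached the lowest control array of day 1.

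LIPE was called lower from day 1 on. The difference was −0.13 at day −2 and −0.43 at day 0 (SE 0.15 each, adjusted p = 1), while at day 1 PPARγ KD cells were at least 2.96-fold lower (adjusted p = 4.05e-12), a lower bound because the probe was above background on none of their arrays that day. This change of the effect from day 0 to day 1 was called (adjusted p = 4.07e-05), but not without replicate 1 (adjusted p = 0.076) and not without scaling between arrays (adjusted p = 0.147). The difference was −2.91 at day 2 (adjusted p = 1.02e-16), −2.97 at day 3 (adjusted p = 5.61e-17) and −3.03 at day 4 (adjusted p = 2.57e-17). It was −3.40 at day 5 (SE 0.15, adjusted p = 4.92e-19) and −2.66 at day 6 (adjusted p = 2.33e-15), where PPARγ KD cells had 15.9% of the control level. On days 2 to 5 the sizes rest on PPARγ KD means that include arrays not above background, and their order was not read. By day 0 LIPE had risen in both arms, by 1.23 in control cells (SE 0.15, adjusted p = 1.53e-05) and by 0.93 under PPARγ KD (SE 0.15, adjusted p = 0.00773). From day 0 to day 1 it fell under PPARγ KD, day 0 being at least 1.46-fold higher (adjusted p = 0.00028). The rise by day 0 was no longer called in control cells without replicate 1 (adjusted p = 0.0733), and under PPARγ KD without replicate 1, 2 or 3 (adjusted p = 0.369, 1 and 0.355). In the order of PPARγ KD levels no day differed from its neighbour beyond the replicate spread.

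MGLL, the monoglyceride lipase, followed another course. It was close to background until day 1 and rose between days 1 and 3 in control cells. The control log2 signals of its brighter probe (2030446) were 6.57, 6.18 and 5.99 at day −2, 5.05, 5.07 and 5.53 at day 0, 5.64, 5.89 and 6.02 at day 1, and 7.12, 7.02 and 6.62 at day 2. They were above background on 1, 0, 0 and 2 of the 3 arrays of these days. From day 3 on all control arrays were above background, with 8.20, 8.34 and 7.67 at day 3, 7.83, 7.78 and 7.54 at day 4, 8.39, 8.25 and 7.75 at day 5, and 8.22, 8.19 and 7.65 at day 6. Under PPARγ KD the signals were 6.94, 6.75 and 6.59 at day −2, which was above all 3 control arrays, and between 5.04 and 6.51 on days 0 to 2. They were 6.73, 6.91 and 6.86 at day 3, 7.41, 7.22 and 6.97 at day 4, 6.97, 6.87 and 6.23 at day 5, and 7.03, 6.85 and 6.70 at day 6. PPARγ KD arrays lay below control arrays without overlap on 5 of 8 days, days 2 to 6.

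The MGLL difference was 0.51 at day −2 (SE 0.18, adjusted p = 1). At day 0 it was above background on no array of either arm, and at day 1 on none of the control arrays. It was −0.68 at day 2 and −0.52 at day 4 (SE 0.18 and adjusted p = 1 for both), and was called at day 3 (−1.24, adjusted p = 0.000906), day 5 (−1.44, adjusted p = 2.87e-05) and day 6 (−1.16, adjusted p = 0.00363). On each of these 3 days 2 of the 3 PPARγ KD arrays were above background. The calls on days 3 and 6 were lost without replicate 1 (adjusted p = 1 for both) and without replicate 2 (adjusted p = 0.957 and 1), and that at day 5 without replicate 1 (adjusted p = 0.0859). In control cells day 6 exceeded day −2 by 1.77 (SE 0.18, adjusted p = 1.37e-07), and under PPARγ KD by 0.11 (SE 0.18, adjusted p = 1). The second MGLL probe (4210520) lay between 4.71 and 5.94 and was above background on 0 of 48 arrays, so it gave no level for either arm.

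CES3 was the only one of the 5 genes called before differentiation, at day −2. In control cells its log2 signals were 7.81, 7.58 and 7.79 at day −2, fell to 6.01, 5.99 and 6.21 at day 0, where no array was above background, and were 8.49, 8.48 and 8.02 at day 1. They were 10.20, 10.16 and 10.11 at day 2, 12.07, 11.99 and 11.85 at day 3, and 12.67, 12.59 and 12.29 at day 4. On days 5 and 6 the control signals stayed between 12.05 and 12.31. Control CES3 thus lost its signal above background at day 0 and then climbed until day 4. Under PPARγ KD the signals lay between 4.65 and 5.66 from day −2 to day 2, above background on 0 of these 12 arrays. They were 7.34, 7.20 and 6.98 at day 3, 8.06, 7.95 and 8.34 at day 4, 8.35, 8.37 and 8.32 at day 5, and 8.47, 8.67 and 8.79 at day 6, all above background. PPARγ KD arrays lay below control arrays on 8 of 8 days, without overlap.

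At day −2 CES3 was at least 2.37-fold lower under PPARγ KD (adjusted p = 4.73e-13). The bound was 3.59-fold at day 1 (adjusted p = 6.09e-17) and 12.8-fold at day 2 (adjusted p = 2.36e-23), and day 0 gave none, since the probe was above background in neither arm. At day 3 both arms were measured, and PPARγ KD cells had 3.59% of the control level (−4.80, SE 0.17, adjusted p = 9.23e-23). The gap was −4.40 at day 4 (adjusted p = 2.11e-21), −3.91 at day 5 (adjusted p = 1.29e-19) and −3.41 at day 6 (adjusted p = 1.45e-17), the last at 9.40% of the control level. Control CES3 was at least 2.37-fold lower at day 0 than at day −2 (adjusted p = 9.67e-08) and at least 3.59-fold higher at day 1 than at day 0 (adjusted p = 1.06e-11). It gained a further 1.82 from day 1 to day 2 (adjusted p = 6.87e-09) and 1.82 from day 2 to day 3 (adjusted p = 7.34e-09). Under PPARγ KD it was at least 1.62-fold higher at day 3 than at day 2 (adjusted p = 4.15e-10), gained 0.95 from day 3 to day 4 (adjusted p = 0.0326), and at day 6 was at least 4.47-fold above day −2 (adjusted p = 1.44e-17). In the order of control levels day 5 stood above day 6 beyond the replicate spread, while days 4 and 5, days 6 and 3, and days 1 and −2 did not differ from each other by that measure.

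**Figure D3:**
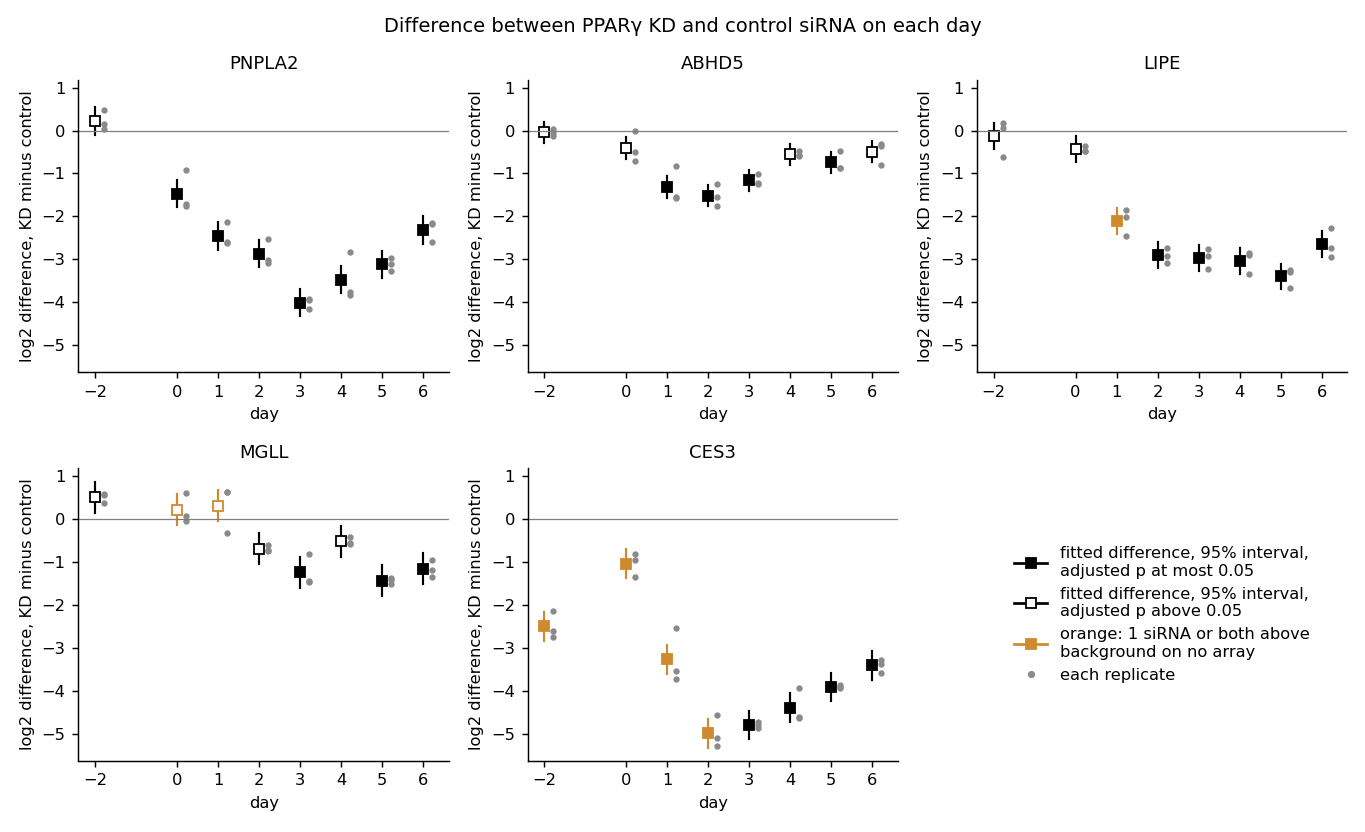
Log2 difference between PPARγ KD and control siRNA (vertical axis) on each day (horizontal axis) for the 5 lipolysis genes, with squares for the fitted difference, bars for its 95% interval and grey points for the 3 replicates. Filled squares had an adjusted p of at most 0.05, open squares a larger one, and orange marks days on which an arm was above background on no array, so that the plotted size is no measure there. PNPLA2 is lowest at day 3 (−4.01) and ABHD5 at day 2 (−1.52).

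Counted by day, more lipolysis probes were called lower under PPARγ KD from day 1 on than before it. Of the 6 probes, 1 was called lower at day −2 (0.674% of all probes), 2 at day 0 (1.37%), 4 at day 1 (1.49%) and 4 at day 2 (4.18%). The 2 at day 0 were PNPLA2 and CES3, and CES3 was above background on no array of either arm that day. At day 3 there were 5 (2.29%), at day 4 there were 3 (2.13%), at day 5 there were 5 (2.68%) and at day 6 there were 4 (3.09%). By limma 0 were higher on each of the 8 days, where 0.187%, 1.67%, 1.42%, 4.74%, 0.475%, 0.272%, 0.565% and 0.796% of all probes were higher from day −2 to day 6, and at an unadjusted p under 0.05 MGLL alone was higher, at day −2. PPARγ KD arrays lay wholly below control arrays for 1 probe at day −2 (4.42% of all probes), 4 at day 0 (5.45%), 4 at day 1 (6.54%) and 5 on each of days 2 to 6 (9.91%, 5.94%, 5.54%, 6.72% and 6.67%). LIPE, PNPLA2 and ABHD5 did so on 7 of 8 days and CES3 on 8 of 8, against 1.16% of all probes on at least 7 days and 0.260% on 8 days. When arrays that share day and number are compared, CES3 was lower under PPARγ KD in 24 of 24, ABHD5 in 23, LIPE in 22, PNPLA2 in 21 and MGLL in 17. The counts of CES3 and MGLL include day 0, where neither arm was above background. The count at day 0 was 0 without replicate 1 and 0 without replicate 2, and that at day 5 was 3 without replicate 1.

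The late days, 4 to 6, were also fitted on their own 18 arrays. 5 of the 6 probes were lower (3.77% of all probes) and 0 were higher (1.54%), with a median log2 difference of −2.01 over the 6 probes and −0.01 over all probes. The differences were −3.91 for CES3 (SE 0.07, adjusted p = 1.52e-16), −3.03 for LIPE (SE 0.09, adjusted p = 1.88e-12), −2.97 for PNPLA2 (SE 0.10, adjusted p = 4.52e-12), −1.04 for MGLL (SE 0.06, adjusted p = 3.42e-08) and −0.60 for ABHD5 (SE 0.06, adjusted p = 0.00101). The 9 control arrays lay above the 9 PPARγ KD arrays without overlap for each of these 5 probes. The share of all probes that did so was not counted, so this is a description of these probes only. The ABHD5 call was lost without replicate 1 (adjusted p = 0.227) and without replicate 2 (adjusted p = 0.271).

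Whether the effect of the knockdown moved with time was tested as the effect of days 4 to 6 minus that of days 0 to 2. This was −1.21 for LIPE (SE 0.12, adjusted p = 1.28e-07), −0.99 for MGLL (SE 0.15, adjusted p = 0.00142) and −0.81 for CES3 (SE 0.13, adjusted p = 0.0162), so 3 of the 6 probes were called, against 2.82% of all probes lower and 0.813% higher. It was −0.71 for PNPLA2 (SE 0.13, adjusted p = 0.0707) and 0.49 for ABHD5 (SE 0.10, adjusted p = 0.493), neither called, and the median was −0.76 over the 6 probes and 0.03 over all probes. Neither value for MGLL or CES3 is a full measure of the early effect, because on days 0 to 2 only 2 of 9 control arrays had MGLL above background and 0 of 9 PPARγ KD arrays had CES3 above it. The LIPE value is no exact size either. Under PPARγ KD LIPE was above background on 3, 0 and 2 of 3 arrays on days 0, 1 and 2, and on 2, 1 and 3 on days 4, 5 and 6. The MGLL and CES3 calls were lost without replicate 1 (adjusted p = 1 for both) and without replicate 2 (adjusted p = 0.634 and 0.265), while LIPE was called without any 1 replicate (adjusted p at most 0.00238), and with an offset of 1 in place of 16 the CES3 value was −0.14 (adjusted p = 1). Between neighbouring days, the effect of 1 of 6 probes became more negative and that of 1 less negative by day 0 (0.284% and 0.378% of all probes), that of 2 more negative by day 1 (0.223%) and that of 1 by day 2 (0.926%). These were PNPLA2 and LIPE, described above, and CES3 in all of the steps, whose PPARγ KD arrays of those days were all at background. The CES3 step to day 0 was not called without replicate 1 or without replicate 2 (adjusted p = 0.521). Its step to day 1 was lost without replicate 1 (adjusted p = 0.123), and that to day 2 without replicate 1 (adjusted p = 0.459) or replicate 2 (adjusted p = 0.0719). In the steps to days 3, 4, 5 and 6 the effect of 0 of 6 probes changed by limma (1.51%, 0.0447%, 0.0244% and 0.00406% of all probes in either direction), with 3, 3, 2 and 3 at an unadjusted p under 0.05.

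In control cells all 5 genes rose during differentiation, in different steps. The F-test over days was called in both arms for 5 of the 6 probes, against 23.5% of all probes in control cells and 16.5% under PPARγ KD. By day 0 PNPLA2 (2.51, adjusted p = 7.74e-14), ABHD5 and LIPE had risen over day −2 (3 of 6 probes higher, 4.01% of all), while MGLL and CES3 were called lower (2 of 6, 5.04% of all) with no day 0 array above background, the MGLL call not holding without replicate 1 or replicate 2 (adjusted p = 1 for both). From day 0 to day 1 only CES3 was called (1 of 6 higher, 4.89% of all). From day 1 to day 2 all 5 rose, by 1.67 for PNPLA2, 1.52 for LIPE, 1.09 for ABHD5 and 1.82 for CES3, and for MGLL by at least 1.32-fold (5 of 6 probes, 1.70% of all). From day 2 to day 3 MGLL gained 1.15 (adjusted p = 0.00424) and CES3 rose while ABHD5 fell (2 of 6 higher, 4.53% of all, and 1 of 6 lower, 3.92% of all). In the 3 steps from day 3 on, 0 of 6 probes changed by limma (0.934%, 0.163% and 0.0691% of all in either direction), with 4, 1 and 1 of 6 at an unadjusted p under 0.05. At day 6, 5 of 6 probes were higher than at day −2 (4.11% of all), with a median gain of 2.70 over the 6 probes and 0.09 over all.

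Under PPARγ KD 4 of the 5 genes ended above their starting level. At day 6, 4 of 6 probes were higher than at day −2 (2.49% of all probes), with a median gain of 0.94 over the 6 probes and 0.12 over all. The gains were 1.64 for PNPLA2, 1.09 for LIPE (adjusted p = 0.00025) and 0.78 for ABHD5 (adjusted p = 0.00427), CES3 was at least 4.47-fold higher, and MGLL stood at 0.11 (not called). The LIPE gain was not called without replicate 3 (adjusted p = 0.606), nor the ABHD5 gain without replicate 1 (adjusted p = 1) or replicate 2 (adjusted p = 0.402). Over the 8 day means, the log2 range was 4.66 in control cells and 1.64 under PPARγ KD for PNPLA2, 3.79 and 1.25 for LIPE, and 2.72 and 1.34 for ABHD5. By day 0 LIPE and ABHD5 were higher than at day −2 (2 of 6 probes, 3.36% of all) and MGLL lower (1 of 6, 4.02% of all, at least 1.18-fold). The MGLL fall, with no day 0 array above background, was not called without replicate 1 (adjusted p = 0.229) or without replicate 2. At day 1, 0 of 6 probes differed from day −2 by limma (4.64% of all in either direction), with 2 at an unadjusted p under 0.05. LIPE and ABHD5 had fallen from day 0 to day 1 (2 of 6 lower, 3.67% of all), PNPLA2 (1.25, adjusted p = 3.94e-05) and ABHD5 gained from day 1 to day 2 (2 of 6 higher, 1.58%), and from day 2 to day 3 PNPLA2 fell by 0.94 (adjusted p = 0.0151, 1 of 6 lower, 0.999%) as CES3 rose (1 of 6 higher, 0.902%). CES3 rose again to day 4 (1 of 6, 0.268%), and in the last 2 steps 0 of 6 probes changed by limma (0.0609% and 0.0203% in either direction), with 2 and 2 at an unadjusted p under 0.05. The call of the PPARγ KD time course was lost for LIPE without replicate 1 (adjusted p = 0.135) and without replicate 3 (adjusted p = 0.146), and for MGLL without replicate 1 (adjusted p = 0.101) and without replicate 2 (adjusted p = 0.169).

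The other genes of the lipolysis pathway did not move as one. Of a list of 59 symbols, 47 were found with 69 probes, of which 35 were above background on at least 3 arrays, and 24 were lower, 2 higher and 43 not called over the 8 days (6.74% and 6.37% of all probes), with a median log2 difference of −0.07. On days 4 to 6, 19 were lower and 0 higher (3.77% and 1.54% of all probes). Of the 8 lipid droplet proteins and lipase regulators (8 probes), 6 were lower, among them CIDEC (−4.15), which promotes droplet growth, and the coat protein S3-12 (−2.03), and 1 was higher, the coat protein M6PRBP1 (0.35, adjusted p = 7.88e-09), with a median of −1.36. The group of product handling and other genes, LPL and PNPLA3 among them, held 7 symbols with 13 probes. In this group 9 probes were lower and 0 higher, and 4 of these 9 were above background on no PPARγ KD array (FABP4 and 3 of AQP7). ACSL1, which activates fatty acids with coenzyme A, stood at −3.28. Of the receptors, 9 symbols with 11 probes, 4 probes were lower and 0 higher. Of these, ADRB3, GPR81 and GPR109A were above background on control arrays alone, and the ADORA1 probe was above background on no array of either arm, so it gave no level. Of the cyclic AMP and protein kinase A genes, 14 symbols with 24 probes, 5 probes were lower (1 of ADCY6, 2 of AKAP1 and 2 of PRKAR2B) and 0 higher (median −0.01, 14 of the 24 probes above background on any array), and of the phosphodiesterases and insulin signalling genes, 9 symbols with 13 probes, 0 were lower and 1 higher (median 0.01, 4 of the 13 probes above background on any array), where the one called was 1 of 4 PDE4A probes (0.24, adjusted p = 0.0128). FABP4, LPL and CIDEC of this list are adipocyte markers as well. The genes named here were chosen after their values were seen.

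A few more pathway genes were picked the same way because they act directly on the enzymes described. G0S2, the protein that inhibits PNPLA2, was lower under PPARγ KD by limma (−3.22, adjusted p = 2.72e-33). PLIN, the perilipin that holds ABHD5, was detected above background on 18 control arrays and on 0 of the 24 PPARγ KD arrays. Protein kinase A phosphorylates LIPE and perilipin. Among the genes of its subunits, PRKACA (−0.07), PRKACB (0.02) and PRKAR1A (0.01) had an adjusted p of 1 on their brightest or only probe. PRKAR2B was lower on its brighter probe (−0.48, adjusted p = 7.73e-07). Of the receptors, GPR81 and GPR109A, which restrain lipolysis, were detected above background on 12 and 15 control arrays and on 0 PPARγ KD arrays, and ADRB3, which drives it, on 8 and 0.

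**Figure D4:**
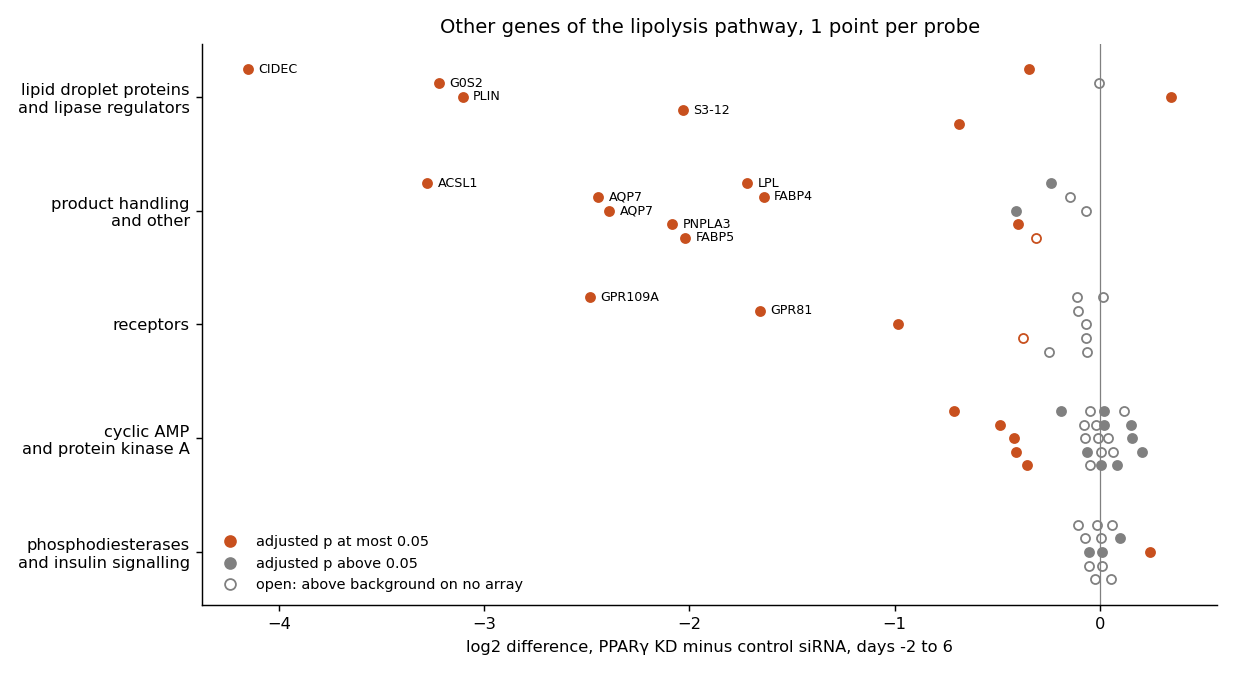
Log2 difference between PPARγ KD and control siRNA over days −2 to 6 (horizontal axis) for the 69 probes of the other lipolysis pathway genes, grouped by role, orange where called and open where above background on no array. Droplet proteins spread to the left (median −1.36), as does the group of product handling and other genes. The cyclic AMP and phosphodiesterase groups sit near 0 (medians −0.01 and 0.01). For PLIN, FABP4, AQP7, GPR81, GPR109A and ADRB3, above background on 0 PPARγ KD arrays, the plotted size is no measure.

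Of 26 symbols of neutral lipid hydrolases outside the 5 genes, 24 were found with 31 probes, of which 11 were above background on at least 3 arrays. Of the 31 probes, 2 were lower, both probes of the phospholipase PNPLA8 (−0.62 on the brighter, adjusted p = 7.62e-16), 1 was higher (DDHD1, 0.27, adjusted p = 7.66e-05) and 28 were not called, with a median of −0.02. The background shares were 6.74% of all probes lower and 6.37% higher, so the share of lower hydrolase probes was close to that of the array.

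The next values are a description over the 16 means of siRNA and day, which rest on the same 3 replicates. The lipolysis genes did not all follow the same curve. Pearson's r between PNPLA2 and LIPE was 0.975, between PNPLA2 and ABHD5 0.809, between MGLL and CES3 0.834, and between MGLL and ABHD5 0.13. For LIPE, MGLL and CES3 the means include groups with no array above background, so r with these genes rests in part on background signal. Among 9858 probes above background on at least 12 arrays, those most like LIPE were DGAT1 (0.992), ACADVL (0.989) and 2400009B08RIK (0.982), and those most like PNPLA2 were DGAT2 (0.990), ACADVL (0.981) and DGAT1 (0.978). For MGLL they were SCLY (0.941), S100A13 (0.937) and PPM1A (0.929), for ABHD5 CISD1 (0.947), PSEN2 (0.947) and ACAT1 (0.942), and for CES3 BC054059 (0.959), EXTL3 (0.956) and PPP1R1A (0.950). DGAT1 and DGAT2 make triglyceride, the substrate of PNPLA2.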

How the data were processed

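RNA from 48 samples was hybridised by the authors to Illumina Sentrix MouseRef-8 v1.1 BeadChips. The deposited intensities are mean bead signals per probe and array from BeadStudio 3.3.7, without normalization, beside the SD between beads and the number of beads. The deposited detection fraction is 1 minus the detection p-value. The rank-invariant normalization and batch removal that the authors describe are not in these values. Signals ran from 15.4 to 67066.3 and array medians from 105.1 to 141.7, and no pair of arrays was identical (highest correlation 0.9974). The number of arrays and the signal over background limit the precision, and a median of 30 to 42 beads lay behind each signal of the 6 probes.

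Samples were grouped by siRNA, day and replicate from their titles. In R 4.3.3, limma 3.58.1 removed background (normexp on detection p-values, offset 16). Each array was then scaled by a factor (0.73 to 1.58) taken from rank-invariant probes, those of mean signal in percentiles 50 to 90 with a rank shift under 0.05 of all probes. A linear model of the log2 values (lmFit, eBayes) had 1 mean for every combination of siRNA and day, with the replicate as a fixed block because the authors removed a batch effect. The call threshold was 0.05 after Bonferroni adjustment over 24613 probes. Days 4 to 6 were fitted on 18 arrays of their own, since the study analysed them separately. A bound ("at least N-fold") sets the mean of the measured arm against, per array of the other, the higher of its own signal and the lowest signal above background. All probes of the genes were named, a gene with 2 probes by the brighter, along with the 3 probes most correlated with each. The members and lists were chosen with earlier results of these data known. On simulated arrays of 24613 probes with 200 changed, 100 of 100 changes of 1 log2 unit and 100 of 100 of 2 were called over all days, 97 and 100 in the late minus early effect, 54 and 100 in the change of effect from day 1 to day 2, and 0 unchanged probes. These arrays had independent normal errors around flat levels plus a replicate effect, and the same model was fitted. They held no background floor and no siRNA effect that differs between replicates, so they give no error rate for the real arrays. Figures were drawn with matplotlib 3.10.9 in Python 3.11.15.

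Same-numbered arrays of a day deviated together from their group means, with correlations from 0.544 to 0.914 in 24 pairs over probes above background on at least 3 arrays, and a lowest of 0.024 over all probes. The numbers pair the arrays only in part, since 16 of 24 control arrays were closest to their own number and control replicate 1 reached 0.854 with PPARγ KD replicate 2, and the block was used because the authors' analysis removed a batch effect. Alternatives were quantile or no scaling, no background correction, offsets of 50 and 1, a filter on dim probes, no block or a block by day, each replicate left out, Benjamini-Hochberg adjustment, ordinary variances, each day on its own arrays, days 4 to 6 from all arrays, and the other MGLL probe.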

Additional observations from a re-analysis of the deposited data

Results flagged for a closer look

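In 3 genes the effect of the knockdown differed between the late days (4 to 6) and the early days (0 to 2) by the test of that difference itself. It was −1.21 on the log2 scale for LIPE, −0.99 for MGLL and −0.81 for CES3. The knockdown effect on LIPE was more negative late than early in 3 of 3 replicates, with differences of −1.12, −1.36 and −1.16. So were those on MGLL (−1.20, −1.04 and −0.73) and CES3 (−0.88, −0.54 and −1.01). For MGLL, 2 of the 9 control arrays of days 0 to 2 were above background, and for CES3 0 of the 9 PPARγ KD arrays of those days. LIPE was above background on 3, 0 and 2 of 3 PPARγ KD arrays on days 0, 1 and 2, and on 2, 1 and 3 on days 4, 5 and 6. The part of this in the values of these genes was not tested. The groups of 3 arrays were not searched for single outlying arrays.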

How the results depend on the processing

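For LIPE, PNPLA2 and CES3 the difference over all days, that of days 4 to 6 and the control time course kept direction and call under every alternative run, and so did ABHD5 over all days and PPARG. The sizes of the dimmer probes depended on the background correction: without it the difference over all days was −2.69 for CES3 and −1.52 for LIPE, with an offset of 1 it was −3.94 and −2.39, and on days 4 to 6 LIPE ranged from −3.24 to −2.21 over the alternatives. Of 560 recomputed values by day, 532 kept direction and call, 23 were no longer called, 4 became called and 1 changed sign. The late minus early effects moved most across the threshold. Without scaling between arrays the CES3 value was −0.85 (adjusted p = 0.249), 3 genes were called lower at day 3, and in the PPARγ KD time course LIPE stood at 0.89, no longer called (adjusted p = 0.753), and MGLL at −0.10, its sign turned. Without background correction late minus early PNPLA2 was −0.71 and called, 1 gene was lower at day 0, and PPARγ KD LIPE stood at 0.56, no longer called. An offset of 50 gave −0.71 for PNPLA2, called, and 1 gene at day 0, an offset of 1 gave −0.14 for CES3, not called, and the filter on dim probes −0.71 for PNPLA2, called. Benjamini-Hochberg adjustment called PNPLA2 (−0.71) and ABHD5 (0.49) as well. With ordinary variances ABHD5 on days 4 to 6 (−0.60) and late minus early CES3 (−0.81) were not called, and the dimmer MGLL probe gave −0.057.

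Without the replicate block, that is ignoring the pairing by number, late minus early MGLL (−0.99, adjusted p = 0.122) and CES3 (−0.81, adjusted p = 0.0902) were no longer called, which left 1 gene, the day 6 gain of LIPE under PPARγ KD was not called (adjusted p = 0.0652), and with the replicate block by day CES3 (−0.81, adjusted p = 0.298) and 1 of the day 0 calls were lost, leaving 1. Over all probes, 3227 were called over all days with the block and 1769 without, 1307 and 568 on days 4 to 6, and 894 and 426 in the late minus early effect.

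With 1 replicate left out, the difference over all days ranged from −0.52 to −0.48 for MGLL and from −0.16 to 0.094 for its dimmer probe, and on days 4 to 6 from −0.68 to −0.52 for ABHD5. The late minus early effect ranged from −0.76 to −0.66 for PNPLA2, −1.12 to −0.88 for MGLL and −0.94 to −0.71 for CES3, and 1 to 4 genes were lower. At day 0, 0 to 2 genes were lower, at day 5, 3 to 5. LIPE at day −2 ranged from −0.28 to 0.11. Under PPARγ KD, day 6 against day −2 ranged from 0.95 to 1.30 for LIPE and 0.10 to 0.11 for MGLL, day 3 from −0.0036 to 0.50 for LIPE and −0.025 to 0.22 for MGLL, and day 5 reached 0.077 for MGLL without replicate 3. The signal over background limits MGLL on days 0 and 1 and CES3 under PPARγ KD up to day 2.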
